A study of Homo sapiens with 6 samples.

Results

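The antioxidant and glutathione genes described here are 9 transcripts measured in HCT116 cells after PLEK2 knockdown. They are NFE2L2, KEAP1, NQO1, HMOX1, SRXN1, SLC7A11, GCLC, GCLM and GPX4. The genes were taken by symbol from the deposited expression table, and all 9 of 9 were found among its 17047 genes. HCT116 is an established human colorectal cancer cell line. Libraries were made from poly(A) RNA of cells given a non-targeting shRNA (shNC, n = 3) or a PLEK2 shRNA (PLEK2 knockdown, n = 3), with no other agent named. The study lists a single PLEK2 shRNA, so effects of that sequence and of lost PLEK2 cannot be told apart. Neither the labels nor the study's methods say that replicates were separate cultures, so p-values measure only the spread between these libraries.

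NFE2L2 encodes NRF2, a transcription factor that switches on genes against oxidative and electrophilic stress. In unstressed cells KEAP1 holds NRF2 and, with a CUL3 and RBX1 ubiquitin ligase, sends it for degradation. Much of this control is therefore exerted on NRF2 protein, which RNA levels do not show. When KEAP1 is inactivated by electrophiles, NRF2 pairs with a small MAF protein and binds the antioxidant response element, while BACH1 competes for the same sites. Glutathione, the main thiol of the cell, starts with cystine taken up by SLC7A11. The GCLC and GCLM subunits of glutamate-cysteine ligase join the resulting cysteine to glutamate, and GPX4 spends glutathione to reduce lipid peroxides in membranes.

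Of the 9 genes, none passed an adjusted p of 0.05 between PLEK2 knockdown and shNC, and their log2 fold changes ran from -0.28 to 0.17. Few of all 12959 genes tested passed it either. The share was 0% without replicate number as a block, and 0.123% higher and 0.725% lower with it. The genes did not share a direction. GCLC, the catalytic subunit of glutamate-cysteine ligase, was higher with knockdown in all 3 same-numbered pairs, whereas GCLM, its modifier subunit, was lower in all 3. GPX4 was also lower in all 3 pairs. Of all genes tested, 19.9% were higher and 21.1% lower in all 3 pairs. The ratio of GCLC to GCLM was higher in each knockdown library than in any shNC library. Its two-sided exact permutation p was 0.1, or 0.4 after adjustment over 4 ratios. The opposite directions of these genes had already been seen, so the ratio adds no independent support. TXNRD1, an NRF2 target outside the 9, was the one gene of 4 wider pathway lists to be called, in the fit with replicate number as a block. In that fit 0.725% of all genes tested were called lower and 0.123% higher. The lists were chosen with earlier results of these data known. Its knockdown mean was 371 ± 51.0 CPM (SD, n = 3; CPM scaled by TMM, a library size correction) against 643 ± 116 with shNC.

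Library totals ranged from 14377532 to 15602732 counts. PLEK2 itself, measured to check the labels, stood at 86.0, 72.6 and 82.9 CPM in shNC replicates 1, 2 and 3, and at 16.02, 32.2 and 34.9 CPM in the PLEK2 shRNA replicates. The groups did not overlap, and the log2 fold change was -1.54 (SE 0.24). Libraries with the same replicate number varied together, so each comparison was fitted without and with the replicate number as a block. Both fits used edgeR's quasi-likelihood test with Benjamini-Hochberg adjustment over the 12959 genes that passed the low-count filter. For PLEK2 the block changed the call, with an adjusted p of 0.684 without it and 0.00107 with it.

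The epithelial markers EPCAM, CDH1, KRT8, KRT18, KRT19 and CLDN4 were all present, with summed levels of 7759 to 8905 CPM in shNC and 6219 to 8122 CPM with knockdown. Of these 6, 5 were lower with knockdown in all 3 pairs, against 21.1% of all genes. With the block, 5 of 6 passed the unadjusted p, all lower, against 18.4% of all genes, and none passed the adjusted test in either fit. Of 8 markers of other cell types, PTPRC and DCN were not in the table, CD3E, PECAM1, CDH5 and COL1A2 never exceeded 3 counts, and CD68 (36.8 to 53.9 CPM) and COL1A1 (24.4 to 33.4 CPM) were detected. The summed level of the 6 in the table, almost wholly CD68 and COL1A1, was 64.3 to 87.3 CPM in shNC and 63.5 to 74.4 CPM with knockdown. The part of these marker levels in the results below was not tested.

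The stretches upstream of GCLC and GCLM are shown because these subunits of the same enzyme leaned in opposite directions, though neither passed the adjusted test. Within the 250 bases searched, the motif bound by NRF2 was found before the start of GCLM and not of GCLC. Any part of the motif in these directions was not tested. Sequences come from RefSeq on GRCh38.p14, run 5′ to 3′ on the gene's strand, and cover 250 to 26 bases before the annotated start. The GCLC window lies at chr6:53545127-53545351 on the minus strand, and the GCLM window at chr1:93909456-93909680, also on the minus strand. Capitals mark a match to the antioxidant response element core TGACNNNGC, which was searched on both strands.
GCLC: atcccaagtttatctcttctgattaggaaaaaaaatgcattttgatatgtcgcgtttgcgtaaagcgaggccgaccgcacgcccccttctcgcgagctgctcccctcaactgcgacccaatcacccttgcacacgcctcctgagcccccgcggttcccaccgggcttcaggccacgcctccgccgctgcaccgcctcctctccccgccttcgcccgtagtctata
GCLM: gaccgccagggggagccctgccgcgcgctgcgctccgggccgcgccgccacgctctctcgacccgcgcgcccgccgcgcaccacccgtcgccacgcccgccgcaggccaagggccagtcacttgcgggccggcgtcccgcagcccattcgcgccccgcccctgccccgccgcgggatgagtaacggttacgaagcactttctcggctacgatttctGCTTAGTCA
The GCLM match reads TGACTAAGC on the opposite strand and lies 34 to 26 bases upstream of the start. Searching all 250 bases before the start, 7 of the 9 genes had an entry, with 11 start sites. The core was found before 2 of these 11 starts, those of GCLM and 1 of 2 starts of KEAP1. Among all 35116 RefSeq promoters of that length, 10.9% held the core. The AP-1 motif TGACTCA, which starts with the same letters TGAC and can lie within the core, was in no window of the 9 genes and in 4.203% of all promoters. A match is a description of letters and does not show binding. Only 250 bases before each start were searched, so a window without a match does not show that a gene lacks the motif elsewhere.

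Levels per transcript length, given as FPKM, which scales counts to transcript length and library total, differed widely between the 9 genes and set their order. GPX4 was highest at 318 ± 24.1 FPKM (SD over n = 6 libraries), at the 98.6th percentile of the tested genes. NQO1 followed at 175 ± 11.2 FPKM, and SRXN1 at 77.0 ± 3.89 FPKM. These 3 detoxifying enzymes kept separate ranges in the 6 libraries.

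The regulators and HMOX1 sat close together below them. KEAP1 was at 48.3 ± 3.33 FPKM, HMOX1 at 40.7 ± 3.70 FPKM and NFE2L2 at 37.7 ± 3.58 FPKM. KEAP1 exceeded HMOX1 in 6 of 6 libraries although their ranges overlapped, while HMOX1 exceeded NFE2L2 in 3 of 6. GCLC, at 31.7 ± 3.80 FPKM, was below NFE2L2 in 6 of 6 libraries with overlapping ranges. GCLM (8.34 ± 1.19 FPKM) and the cystine transporter SLC7A11 (1.53 ± 0.46 FPKM) were the least abundant of the 9, at percentiles 44.7 and 15.1 of the tested genes.

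**Figure D1:**
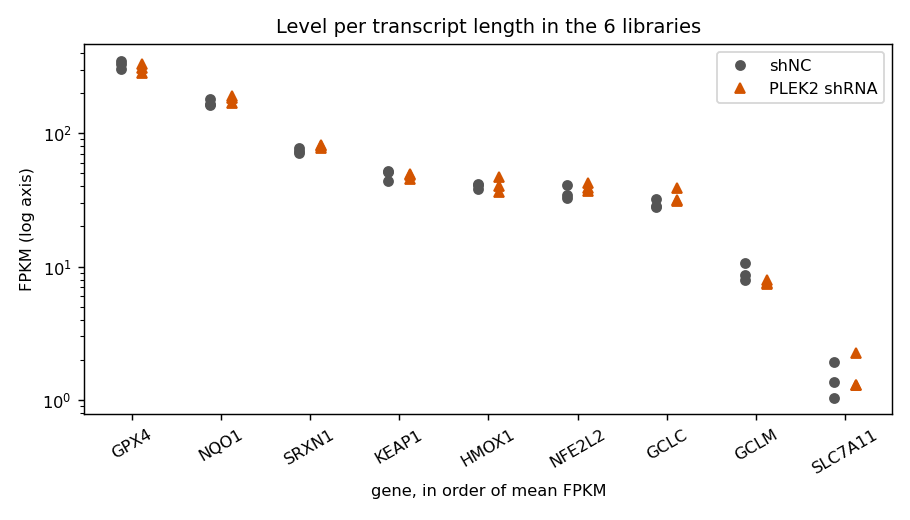
FPKM of each gene on a log axis, with genes ordered by mean; circles are the 3 shNC libraries and triangles the 3 PLEK2 shRNA libraries. Levels span from GPX4 (281 to 350 FPKM) to SLC7A11 (1.04 to 2.25 FPKM), and the groups lie over each other for most genes.

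Positions below are those of GENCODE 44 on GRCh38. The regulators were compared first, because NFE2L2 transcripts supply the factor and KEAP1 transcripts the sensor. NFE2L2 (chr2:177218667-177392756, minus strand) stood at 113, 90.6 and 95.1 CPM in shNC replicates 1 to 3 and at 112, 105 and 99.1 CPM with knockdown. Knockdown replicates 2 and 3 were above their partners, replicate 1 was level with its own, and the groups overlapped. The log2 fold change was 0.08 (SE 0.10, 95% interval -0.15 to 0.32), with adjusted p = 0.968 without and 0.476 with the block. In GENCODE 44, exons of NFE2L2 share 3509 bases with HNRNPA3 on the opposite strand, and the strand setting of the counting is not given in the sources used here. HNRNPA3 had 7913, 5297 and 5372 counts in shNC and 8705, 5875 and 5909 with knockdown, highest in replicate 1 of each group as NFE2L2 was, and its part in the NFE2L2 counts was not tested.

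KEAP1 (chr19:10486125-10503558, minus strand), the cysteine-rich sensor that binds NRF2, was at 108, 127 and 127 CPM in shNC and 108, 119 and 117 CPM with knockdown. It was lower with knockdown in all 3 pairs, although in pair 1 the difference was only -0.0015 on the log2 scale. The log2 fold change was -0.07 (SE 0.09, 95% interval -0.28 to 0.14). The groups overlapped, and the ratio of NFE2L2 to KEAP1, both in FPKM, was 0.938, 0.640 and 0.666 in shNC and 0.930, 0.788 and 0.756 with knockdown. That ratio followed the replicate number more visibly than the knockdown, being highest in replicate 1 of both groups (exact permutation test, two-sided p = 0.6).

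Among the target enzymes NQO1, SRXN1 and HMOX1, none separated the groups in CPM. NQO1 (chr16:69706996-69726668, minus strand), a quinone reductase often read as a gauge of NRF2 activity, stood at 404, 403 and 437 CPM in shNC and 433, 409 and 459 CPM with knockdown. It was higher in all 3 pairs, by 0.10, 0.02 and 0.07 on the log2 scale, and the groups overlapped. SRXN1 (chr20:646615-653200, minus strand), which repairs over-oxidised peroxiredoxins, was at 185, 201 and 189 CPM in shNC and 195, 205 and 206 CPM with knockdown.

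SRXN1 was likewise higher in all 3 pairs, with groups that overlapped in CPM but not in FPKM, where shNC stood at 71.2, 77.6 and 73.7 and knockdown at 78.0, 80.2 and 81.3. Its log2 fold change of 0.07 (SE 0.07) was the same size as its error. HMOX1 (chr22:35380361-35394214, plus strand), the haem-degrading oxygenase that BACH1 represses, had 56.6, 59.6 and 60.4 CPM in shNC and 57.1, 68.2 and 51.6 CPM with knockdown. Its knockdown libraries held both the highest and the lowest level, so pair 2 was 0.19 higher and pair 3 was 0.23 lower (log2 ratio -0.23). The fitted HMOX1 log2 fold change was 0.0017 (SE 0.11) without the block and -0.0049 (SE 0.08) with it.

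**Figure D2:**
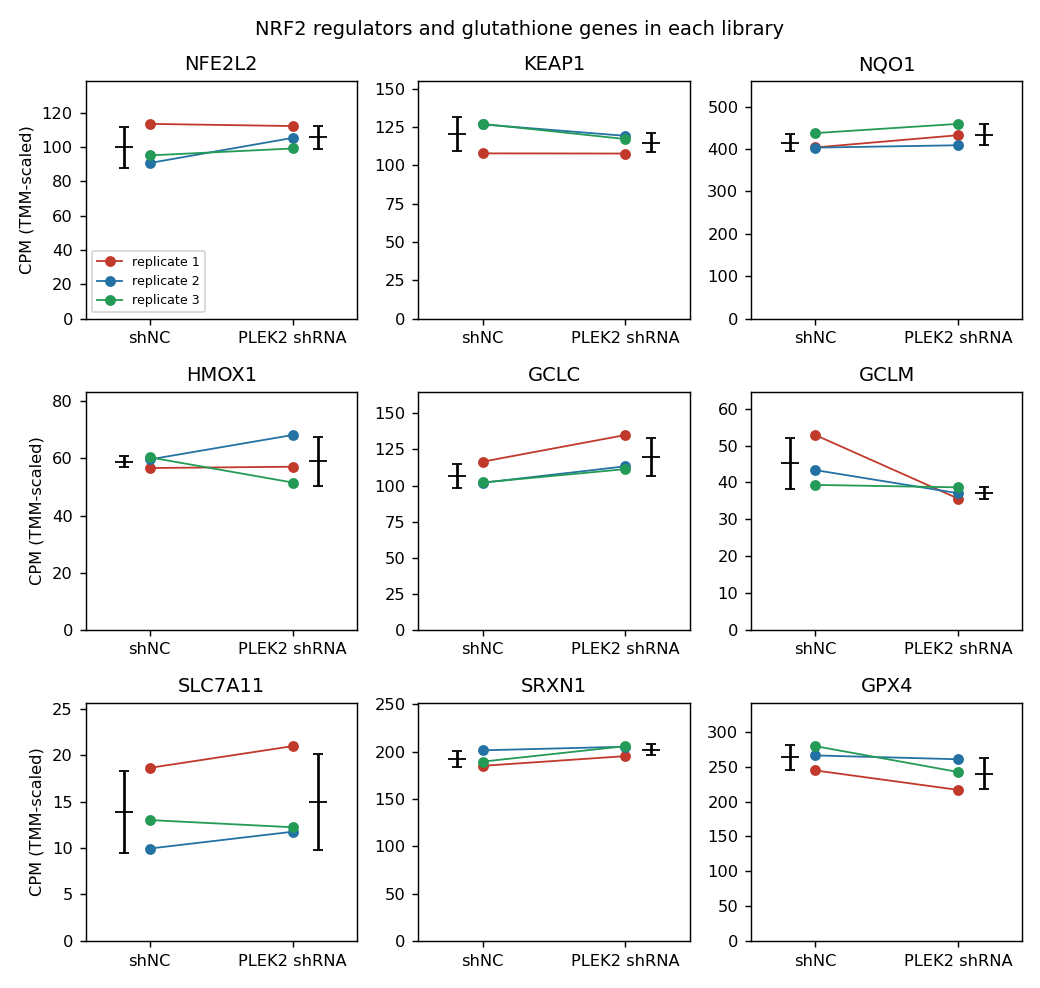
CPM of each of the 9 genes in the shNC and PLEK2 shRNA libraries, each panel starting at 0; lines join libraries of the same replicate number and black bars give mean ± SD (n = 3). GCLM is the one panel in which every knockdown library (35.6 to 38.7 CPM) lies below every shNC library (39.3 to 52.9 CPM).

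The glutathione supply genes gave the clearest contrast. GCLC (chr6:53497341-53616970, minus strand) was at 117, 102 and 102 CPM in shNC and 135, 113 and 111 CPM with knockdown. Each knockdown library exceeded its partner, by 0.21, 0.15 and 0.13 on the log2 scale, yet knockdown replicates 2 and 3 were below shNC replicate 1 and the groups overlapped. The log2 fold change was 0.17 (SE 0.10, 95% interval -0.07 to 0.40) without the block and 0.16 (SE 0.05, 95% interval 0.05 to 0.28) with it. The blocked interval lay above 0, but the adjusted p was 0.968 without and 0.144 with the block. Leaving out PLEK2 shRNA replicate 1 without the block gave a log2 fold change of 0.07.

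GCLM (chr1:93885199-93909456, minus strand), which lowers the substrate needs of GCLC and its inhibition by glutathione, was at 52.9, 43.3 and 39.3 CPM in shNC and 35.6, 37.1 and 38.7 CPM with knockdown. In CPM every knockdown library lay below every shNC library, and it was the only 1 of the 9 genes whose groups did not overlap on that scale. In FPKM the groups touched, with 7.94 in replicate 3 of both. The pairs were uneven, at -0.57, -0.23 and -0.02 on the log2 scale, so pair 3 barely differed. Its log2 fold change was -0.28 in both fits, with SE 0.12 and adjusted p = 0.968 without the block, and SE 0.09 and adjusted p = 0.135 with it.

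GCLM therefore missed the threshold, and the size of its difference rested on replicate 1. Without shNC replicate 1 the log2 fold change was -0.14, and with replicate 1 left out of both groups in the blocked fit it was -0.12 (adjusted p = 0.414). Leaving replicate 3 out of both groups instead gave -0.39 and an adjusted p of 0.00845. With the block, leaving out shNC replicate 3 alone or PLEK2 shRNA replicate 3 alone removes the same pair from the comparison. These runs therefore largely repeat that one, with log2 fold changes of -0.39 and -0.40 and adjusted p values of 0.00656 and 0.0177.

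SLC7A11 (chr4:138164097-138242349, minus strand), the cystine-importing chain of the xCT transporter, was low throughout, at 18.6, 9.95 and 13.0 CPM in shNC and 21.0, 11.8 and 12.2 CPM with knockdown. Replicate 1 was the highest library of each group, and the groups overlapped. Knockdown was above its partner in pairs 1 and 2 and below it in pair 3. The log2 fold change of 0.11 had an SE of 0.28 without the block and 0.10 with it. Its 95% interval without the block, -0.52 to 0.74, was the widest of the 9. Some estimated counts of SLC7A11 and NQO1 were not whole, as happens when an estimator divides reads between genes.

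GPX4 (chr19:1103982-1106791, plus strand), the selenoenzyme that guards membranes against ferroptosis, was at 245, 266 and 280 CPM in shNC and 217, 261 and 243 CPM with knockdown. It was lower in all 3 pairs, by log2 ratios of -0.17, -0.03 and -0.21, and the groups overlapped. The log2 fold change was -0.13 (SE 0.09) without and -0.14 (SE 0.05, 95% interval -0.25 to -0.02) with the block. Its adjusted p was 0.208 with the block. The unadjusted blocked p for GPX4 was 0.0262 in edgeR with TMM and 0.0624 in edgeR with library totals. It was 0.0665 by DESeq2's Wald test and 0.065 by limma-trend.

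Counted together, the 9 genes stayed near the background of all tested genes. Without the block, 0 of 9 passed the adjusted test, as did 0% of the 12959 genes tested, and 0 of 9 were called by DESeq2's Wald test, which called 12 genes in all. At an unadjusted p under 0.05, 1 of 9 (GCLM) passed without the block, against 3.09% of all genes. With the block, 3 of 9 (GCLC, GCLM and GPX4) passed the unadjusted p, against 18.4% of all genes, and 0 of 9 passed the adjusted p, against 0.123% of all genes called higher and 0.725% called lower.

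The directions were also mixed at this scale. NQO1, GCLC and SRXN1 were higher in all 3 pairs (3 of 9, with 19.9% of all genes), and KEAP1, GCLM and GPX4 were lower in all 3 (3 of 9, with 21.1% of all genes). In CPM, groups that did not overlap were found in 0 of 9 genes in the higher direction (4.08% of all genes) and in 1 of 9, GCLM, in the lower direction (5.12%). In FPKM, a scale checked after seeing the data, it was 1 of 9, SRXN1, in the higher direction (6.57% of all genes) and 0 of 9 in the lower (3.55%). The median log2 fold change without the block was 0.06 over the 9 genes and -0.002 over all genes tested. Scaling to library totals with the block moved the median of all genes to 0.03.

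**Figure D3:**
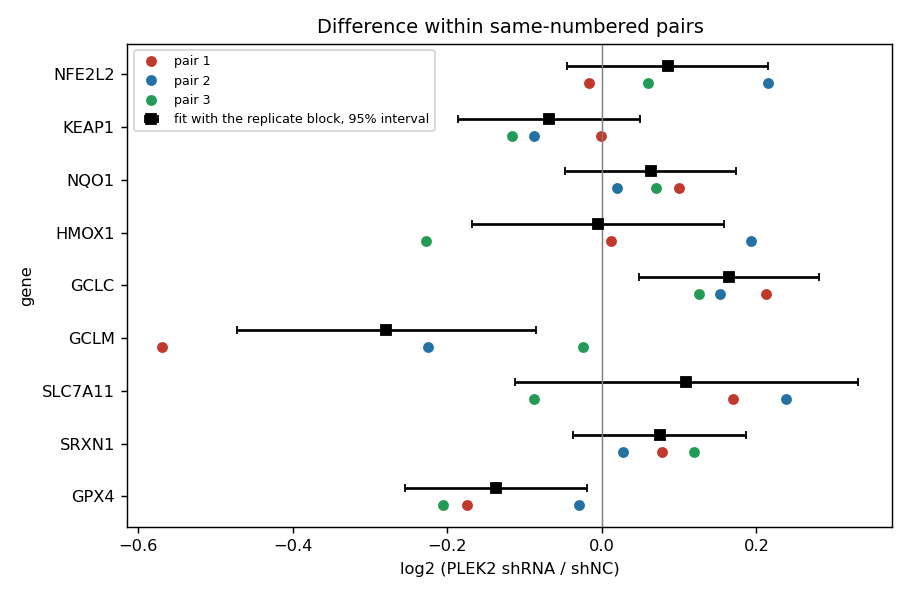
Log2 ratio of PLEK2 shRNA to shNC for each gene; coloured circles are the 3 same-numbered pairs of CPM values and black squares the fit with the replicate block with its 95% interval. The intervals of GCLC, GCLM and GPX4 leave out 0, and the GCLM pairs spread from -0.57 to -0.02.

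Replicate number went with differences of its own in 2 of these genes, as it did in many of all genes tested. In the blocked fit the replicate term passed an adjusted p of 0.05 for 2 of 9 genes, GCLC and SLC7A11, against 28.4% of all genes. SLC7A11 was lower in replicates 2 and 3 than in replicate 1, with log2 fold changes of -0.87 and -0.65 (adjusted p = 0.0009). GCLC was lower as well, with log2 fold changes of -0.22 and -0.23 (adjusted p = 0.0243), which is larger than its knockdown difference of 0.16 in the same fit. What set replicate 1 apart is not given in the labels.

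Ratios of partner transcripts compared genes within a library, on the FPKM scale. For GCLC to GCLM, the catalytic to the modifier subunit, the ratio was 3.03, 3.24 and 3.58 in shNC and 5.24, 4.21 and 3.91 with knockdown. All knockdown libraries exceeded all shNC libraries, with means of 3.28 ± 0.277 and 4.45 ± 0.696 (SD, n = 3) and a difference of 0.43 on the log2 scale. An exact permutation test, two-sided, gave p = 0.1, the smallest that 3 against 3 libraries allow, and 0.4 after adjustment over 4 ratios. GCLC and GCLM had already been seen to differ in direction, so the ratio adds no independent support. Without PLEK2 shRNA replicate 1 the difference was 0.31.

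The other ratios did not separate the groups. SLC7A11 to SLC3A2, its heavy-chain partner at the membrane, was 0.0113, 0.00496 and 0.00705 in shNC and 0.0148, 0.00684 and 0.00722 with knockdown, higher in all 3 pairs with overlapping groups (exact permutation p = 0.6). NFE2L2 to BACH1, activator to repressor, was 8.86, 7.71 and 8.77 in shNC and 7.599, 9.87 and 8.99 with knockdown. Its knockdown libraries spanned the shNC range on both sides (exact permutation p = 0.7).

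**Figure D4:**
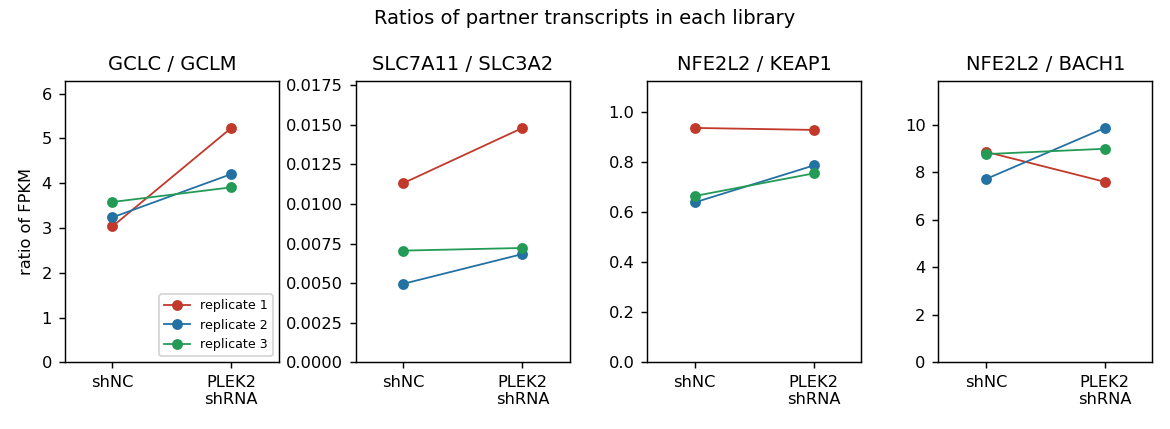
Ratios of FPKM for 4 pairs of partner transcripts in the shNC and PLEK2 shRNA libraries, with lines joining libraries of the same replicate number and each axis starting at 0. Only the GCLC to GCLM panel has groups that do not overlap, 3.03 to 3.58 with shNC and 3.91 to 5.24 with knockdown.

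The wider control of NRF2 was followed in a list of 17 genes covering the ligase, the MAF partners, competing factors and coactivators, all of which were tested. None was called in either fit, and 1 passed the unadjusted p without the block, against 3.09% of all genes. With the block, 3 passed it higher and 2 lower, against 18.4% of all genes in either direction. In all 3 pairs, 4 were higher and 6 lower (19.9% and 21.1% of all genes), and the median log2 fold change was -0.03. BACH1 (log2 fold change 0.04), the small MAF partner MAFG (-0.11) and SQSTM1 (-0.03), which draws KEAP1 away from NRF2, had adjusted p values of 0.856, 0.307 and 0.827 with the block. Among genes picked out after their values were seen, the ligase ring subunit RBX1 was at 32.4, 32.9 and 36.5 CPM in shNC and 27.3, 28.3 and 30.05 CPM with knockdown (adjusted p = 0.103 with the block). Its scaffold partner CUL3 was higher in all 3 pairs (log2 fold change 0.14, adjusted p = 0.189 with the block). CREBBP, a coactivator, was lower in all 3 pairs (-0.42 with the block, adjusted p = 0.0508).

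Other NRF2 targets numbered 29, of which 26 were tested, and 1 was called lower with the block and none higher, against 0.725% and 0.123% of all genes. Of the 26, 5 were higher and 7 lower in all 3 pairs, against 19.9% and 21.1% of all genes. Without the block, 3 of 26 (TXNRD1, AKR1B10 and CBR3) passed the unadjusted p, against 3.09% of all genes. With the block, 3 passed it higher and 5 lower, against 18.4% of all genes in either direction. The median log2 fold change was -0.01. The called gene was TXNRD1, the cytosolic thioredoxin reductase, at 766, 627 and 535 CPM in shNC and 315, 414 and 384 CPM with knockdown. The groups did not overlap. TXNRD1 fell in all 3 pairs, with log2 ratios of -1.28, -0.60 and -0.48, a fitted log2 fold change of -0.79 (SE 0.11) and an adjusted p of 0.00644 with the block. Without the block its adjusted p was 0.775, and in DESeq2's Wald test without the block 0.000792.

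The TXNRD1 call under the block varied with the tool and, near the threshold, with the libraries kept. Under the block its adjusted p was 0.0652 by DESeq2's Wald test and 0.0692 by limma-trend. In edgeR, leaving out shNC replicate 2 gave 0.0881 with a log2 fold change of -0.87. Leaving replicate number 2 out of both groups, which removes the same pair, gave 0.0443, also with -0.87. Leaving out any other single library kept the blocked adjusted p under 0.05. Without shNC replicate 1 or PLEK2 shRNA replicate 1, the blocked log2 fold change was -0.53 and -0.54.

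The ferritin heavy chain FTH1, which stores iron, had a log2 fold change of 0.01, beside the -0.79 of TXNRD1. The widest other values came from scarce transcripts, singled out after seeing them. AKR1B10, an aldo-keto reductase whose reads may be shared with near-identical relatives, lay between 0.346 and 1.34 CPM and had a blocked log2 fold change of 0.998 (adjusted p = 0.173). CBR3, a carbonyl reductase, lay between 0.596 and 1.38 CPM with -0.76 (adjusted p = 0.247). AKR1C1, AKR1C2 and CBR1 were in the table but did not pass the low-count filter.

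Glutathione synthesis and use was covered by 37 genes, of which 32 were tested. None was called in either fit, and 1 passed the unadjusted p without the block, against 3.09% of all genes. With the block, 6 passed it higher and 3 lower, against 18.4% of all genes in either direction. In all 3 pairs, 9 were higher and 6 lower, against 19.9% and 21.1% of all genes. The median log2 fold change was -0.0004. Glutathione reductase, GSR, which returns oxidised glutathione to its reduced form, was at 270.2, 235 and 242 CPM in shNC and 304, 265 and 268 CPM with knockdown. It was higher in all 3 pairs with overlapping groups (log2 fold change 0.16, adjusted p = 0.123 with the block), a pattern like that of GCLC. SLC3A2, the partner of SLC7A11, was lower in all 3 pairs (-0.18, adjusted p = 0.104 with the block).

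GSS, which completes glutathione from the product of glutamate-cysteine ligase, had a log2 fold change of 0.05. The degrading enzyme CHAC1, often raised by amino acid shortage, was at 7.17, 2.61 and 3.32 CPM in shNC and 5.66, 3.35 and 3.18 CPM with knockdown. As with SLC7A11, replicate 1 was the highest of each group, and its replicate term had an adjusted p of 0.004. GGT1, which cleaves glutathione outside the cell and was chosen after its values were seen, was the gene that passed the unadjusted p without the block. It was at 6.58, 6.35 and 7.96 CPM in shNC and 4.96, 4.86 and 5.82 CPM with knockdown. Its groups did not overlap, with a blocked log2 fold change of -0.42 and adjusted p = 0.149, and its reads may be shared with near-identical relatives. GGCT, another enzyme of glutathione breakdown and likewise chosen, was higher in all 3 pairs (log2 fold change 0.25, adjusted p = 0.0795 with the block). The glutathione transferase GSTA4, likewise chosen, lay between 0.635 and 1.59 CPM with 0.66 (adjusted p = 0.277 with the block).

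Selenoprotein synthesis and lipid peroxidation, the surroundings of GPX4, held 19 genes with 18 tested. None was called in either fit and none passed the unadjusted p without the block, against 3.09% of all genes. With the block, 2 passed it higher and 1 lower, against 18.4% of all genes in either direction. In all 3 pairs, 4 were higher and 3 lower, against 19.9% and 21.1% of all genes. The median log2 fold change was 0.07, beside -0.13 for GPX4. TXNRD1 and GPX4 are both selenoproteins, and both were lower in all 3 pairs, as were 21.1% of all genes, but only TXNRD1 passed the adjusted test. GPX1, another selenoprotein, was higher in pair 1 and lower in pairs 2 and 3, with a log2 fold change of -0.04. The difference between TXNRD1 and GPX4 was not tested.

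**Figure D5:**
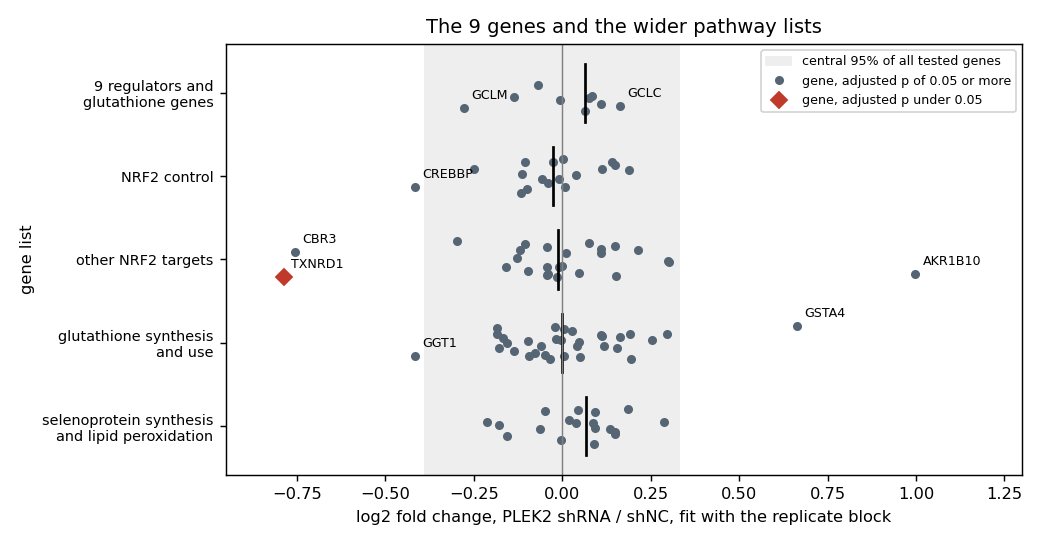
Log2 fold change with the replicate block for the 9 genes and 4 wider lists; each circle is a gene, the diamond is the gene with adjusted p under 0.05, black lines are list medians and the grey band holds the central 95% of all tested genes (-0.39 to 0.33). TXNRD1 is the called gene at -0.79, while AKR1B10, GSTA4, CBR3, CREBBP and GGT1 lie outside the band without being called.

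GCLM had the smallest blocked p of the 9, and the genes most like it over the 6 libraries were found by the Pearson correlation of log2 CPM among genes with a mean log2 CPM over 3. They were SYTL3 (r = 0.989), MMAB (r = 0.986) and LSS (r = 0.985). LSS, the lanosterol synthase of cholesterol synthesis, was at 54.8, 48.4 and 45.8 CPM in shNC and 43.2, 42.7 and 45.9 CPM with knockdown. Like GCLM, it was highest in shNC replicate 1 and close to level in pair 3. These values describe 6 libraries and were selected as the highest of many, so they carry no test.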

How the data were processed

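HCT116 RNA was sequenced on a DNBSEQ platform with single-end reads of 50 bases, and samples were grouped by the labels. The authors deposited estimated counts per gene without normalization, of which 84.2% to 85.4% per library were whole, and values scaled to length and depth with no stated unit, read here as FPKM. Over 3071 genes, the count divided by this value differed between libraries as the library totals did, to within 0.208% (median over genes). The submitters' processing notes name HISAT2 2.0.4, Bowtie2 2.2.5, RSEM 1.2.12, DESeq2 1.4.5 and the mouse build GRCm38.p6, although the table holds human genes. Gene positions and overlaps are from GENCODE 44 on GRCh38. Columns of the authors' own comparisons were not used.

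Estimated counts were rounded, filtered (filterByExpr), scaled by TMM (0.984 to 1.021) and fitted in edgeR 4.0.16 (R 4.3.3, limma 3.58.1, DESeq2 1.42.0; Python 3.11.15, numpy 2.4.6, pandas 2.3.3, scipy 1.17.1). Over 10141 genes, deviations from group means correlated at 0.733, 0.549 and 0.541 between same-numbered libraries and from -0.628 to 0.350 otherwise, so the shared label numbers pair the samples. No 2 libraries of a group agreed within counting noise (chi-square per gene 3.06 to 20.2). The fits were tested on simulated data.

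The genes and lists were chosen with earlier results of these data known. Genes named were the 9, PLEK2, set partners (TXNRD1, SLC3A2, GSR, GSS, BACH1, MAFG, SQSTM1, FTH1, CHAC1, and another not reported here), list genes with an adjusted p under 0.05, and the 3 most like GCLM. RBX1, CUL3, CREBBP, AKR1B10, CBR3, GGT1, GGCT and GSTA4 were chosen after their values were seen. Alternatives were DESeq2's size factors and Wald test, library totals, other low-count filters, limma-trend on log2(FPKM + 1), the block, and each library or replicate number left out.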

Additional observations from a re-analysis of the deposited data

How the results depend on the processing

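The 3 libraries of each group limit the precision, and SLC7A11, with the fewest counts, was the least precise. In each alternative run, the log2 fold change held its direction for GCLC (0.07 to 0.25), GCLM (-0.40 to -0.12), GPX4, KEAP1, NFE2L2, NQO1 and SRXN1. HMOX1 turned to -0.0049 with the replicate block, to -0.0054 and -0.0953 with the block and replicate number 1 or 2 left out of both groups, and lay between -0.1155 and 0.08952 with single libraries left out without the block, and between -0.1066 and 0.1138 with it. SLC7A11 lay between -0.2115 and 0.3996 with single libraries left out. The cause was not tested. With the block, 0 to 1 of the 9 genes were called when 1 library was left out, and 1 (GCLM, -0.3913) with replicate number 3 left out of both groups. The block called 1 of the other NRF2 targets (TXNRD1) against 0 without it, called PLEK2, and changed no other call among the 9 genes and the 4 pathway lists; over all 12959 genes it called 110 against 0. The replicate term called 1 to 4 of the 9 genes when 1 library was left out, against 2. With single libraries left out, the log2 difference in the SLC7A11 to SLC3A2 ratio lay between -0.06376 and 0.6062 and that in the NFE2L2 to BACH1 ratio between -0.02859 and 0.1598. DESeq2 gave no adjusted p for GCLM and SLC7A11 with the block.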
